A study of Mus musculus with 7 samples.

Results

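The 39 genes described here encode MYC, its paralogue MYCN and the machinery that builds ribosomes in the nucleolus, and they were taken by symbol from a list written for this work without a threshold on any value. All 39 were found among the 19649 genes of the deposited table, and all 39 were among the 16047 genes tested. The mutant genotype, Calr fl/fl (Calr del52/del52) with MxCre, had 3 libraries, and the wild-type genotype, Calr +/+ with MxCre, had 4. Every mouse, wild-type included, carried MxCre, a Cre recombinase driven by an interferon-responsive promoter, and received pI:pC, a double-stranded RNA mimic that switches that promoter on. Long-term haematopoietic stem cells (negative for lineage markers and CD48, positive for Kit, Sca-1 and CD150) were sorted on day 14 of induction, without drug treatment. MxCre is active in every tissue that responds to interferon, so recombination is not limited to blood cells. Whether libraries stand for different mice is not stated, so the p-values cover only the scatter among these 7 libraries, and the labels give no ages.

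MYC and MYCN are transcription factors that pair with MAX and bind E-box motifs. Among their best-known targets are the genes for ribosome assembly. RNA polymerase I transcribes the ribosomal RNA precursor in the nucleolus, small nucleolar ribonucleoproteins (snoRNPs) of the box C/D and box H/ACA classes guide its methylation and pseudouridylation, and separate sets of factors then assemble the small (40S) and large (60S) subunits. Haematopoietic stem cells are known for a low rate of protein synthesis, which rises as they enter the cell cycle.

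Each library held between 21325340 and 28710304 counted reads. The labelled cell type was checked on 10 stem cell markers, whose summed normalized counts were 37104 to 43400 in the mutant libraries, against 37931 to 74135 in the wild-type libraries. These sums hide markers that moved in opposite directions. Between the wild-type pairs, limma called 5 of the 10 higher and 4 lower in wild-type 3 and 4. Kit had 4736, 6677 and 2976 normalized counts in mutant 1 to 3, against 4150, 4068, 26511 and 25305 in wild-type 1 to 4. Ly6a had 4956, 4207 and 6262, against 4838, 6363, 2323 and 2407. Against wild-type 3 and 4, limma called 3 of the 10 higher and 4 lower in the mutant libraries. Of 9 markers of cells that the sort removes, 6 were analysed, with summed normalized counts of 244 to 296 in the mutant and 335 to 695 in the wild-type libraries, and Ly6g was at 0 in mutant 3. Neutrophil and monocyte genes were present, with sums of 50744, 11048 and 13495 normalized counts in mutant 1 to 3, against 52506, 46106, 90177 and 51694 in wild-type 1 to 4, and their part in the results was not tested. Mitochondrially encoded genes took 1.11%, 0.683% and 1.17% of the normalized counts in mutant 1 to 3, against 0.363% and 0.412% in wild-type 3 and 4, with 0.681% and 0.711% in wild-type 1 and 2, and their part in the results was not tested. The wild-type libraries stood in 2 pairs: limma called 8810 of 16047 genes (54.9%) between wild-type 3 and 4 and wild-type 1 and 2. Titles of wild-type 3 and 4 and of mutant 1 and 2 carry numbers of a common series, unlike the remaining 3 titles. Among those, the title of mutant 3 differs in form from the titles of wild-type 1 and 2. The labels do not say what the title series means. Each result is therefore given against all 4 wild-type libraries and against each pair. The comparisons against the pairs share the mutant libraries.

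No member passed limma's test against all 4 wild-type libraries, and the picture depended on the wild-type pair. Against all 4, limma called 0 of 39 members and 0% of all genes at an adjusted p of 0.05 (smallest adjusted p of all genes 0.538), with 2 members and 1365 of all genes at an unadjusted p under 0.05. On the recovered reads, edgeR and DESeq2 each called 0 members, and DESeq2 called 47 of all genes higher and 60 lower. The log2 differences, mutant minus wild-type, were positive in 22 members and negative in 17 (49.9% of all genes were negative), with a median of 0.04. In 2 members all mutant libraries were below all wild-type libraries, as in 4.34% of all genes, and in 0 members they were above them, as in 5.23% of all genes. Over all genes tested the median was 0.00.

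Against wild-type 1 and 2, 38 of 39 members had a negative log2 difference, compared with 50% of all genes. The median was -0.26, within a range of -0.62 to 0.14, and that of all genes was 0.00. None passed (smallest adjusted p 0.255, limma), and limma called 0.318% of all genes. At an unadjusted p under 0.05 were 5 of the 39 members and 1539 of all 16047 genes. Here too edgeR and DESeq2 each called 0 members. In 16 members every mutant library was below wild-type 1 and 2, a pattern found in 12.4% of all genes, and in 0 members every mutant library was above both, a pattern found in 13.9% of all genes. By direction, 0.237% of all genes were called higher and 0.081% lower. Without mutant 2, limma called 3 members lower (Polr1b, Bysl and Nop2) and 0 higher, while 304 of all genes (1.89%) were called lower and 465 (2.9%) higher in that fit. Proliferation markers were read beside these values: all 18 of a list had negative log2 differences against the same pair, with a median of -0.44, and limma called 0 of them, with 9 at an unadjusted p under 0.05. Their summed normalized counts were 80524, 109102 and 83608 in mutant 1 to 3, against 130667 and 106944 in wild-type 1 and 2. Of 8 megakaryocyte markers, all had negative log2 differences against this pair (median -0.80), and limma called Itga2b lower (log2 -1.15, SE 0.18, adjusted p = 0.0411). Of 10 erythroid markers, 8 were negative (median -0.81), and limma called 0 of them, with 4 at an unadjusted p under 0.05. Summed normalized counts of the megakaryocyte markers were 20866 to 25318 in the mutant libraries, against 31470 and 36478 in wild-type 1 and 2, and those of the erythroid markers 56740 to 71171, against 57276 and 57013. Most of the erythroid sums came from Car2, which ran against the 8 negative markers. Car2 had 62723, 54236 and 66997 normalized counts in mutant 1 to 3, against 51293 and 51861 in wild-type 1 and 2. Of 14 neutrophil and monocyte markers, 12 were negative against this pair (median -1.82). By limma 0 of them were called, with 13 at an unadjusted p under 0.05. The part of these marker lists in the members' values was not tested.

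Against wild-type 3 and 4, limma called 18 members higher and 5 lower in the mutant libraries, while 19.7% of all genes were called higher and 22.8% lower, 42.6% in all. Differences were negative in 13 members, against 50.2% of all genes. All mutant libraries were above both libraries of this pair in 24 members and below both in 6, each of which was found in 33.8% of all genes. The median was 0.41, within a range of -2.01 to 1.29. The 5 members that fell were Polr1a, Polr1b, Ddx21, Mybbp1a and Utp20. These counts were 11 higher and 4 lower without mutant 1, 2 higher and 3 lower when wild-type 3 was left out, and 6 higher and 3 lower when wild-type 4 was, where a lone wild-type library is assumed to vary like the others. Of the 23 calls, those of Nop58, Nhp2, Polr1a, Mybbp1a and Utp20 held whichever library was left out, and the other 18 were lost in at least 1 of these fits. Between the wild-type pairs themselves, limma called 5 members higher and 27 lower in wild-type 3 and 4 than in wild-type 1 and 2, with 29.6% and 25.3% of all genes called in these directions. Differences between the pairs were negative in 32 members, against 49.7% of all genes. The median difference between the pairs was -0.70, within a range of -1.60 to 1.51. By means of log2 values, the mutant libraries lay between the pairs in 25 members, below both in 13 and above both in 1, Npm1. This split was not counted over all genes, of which 54.9% were called between the pairs.

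**Figure D1:**
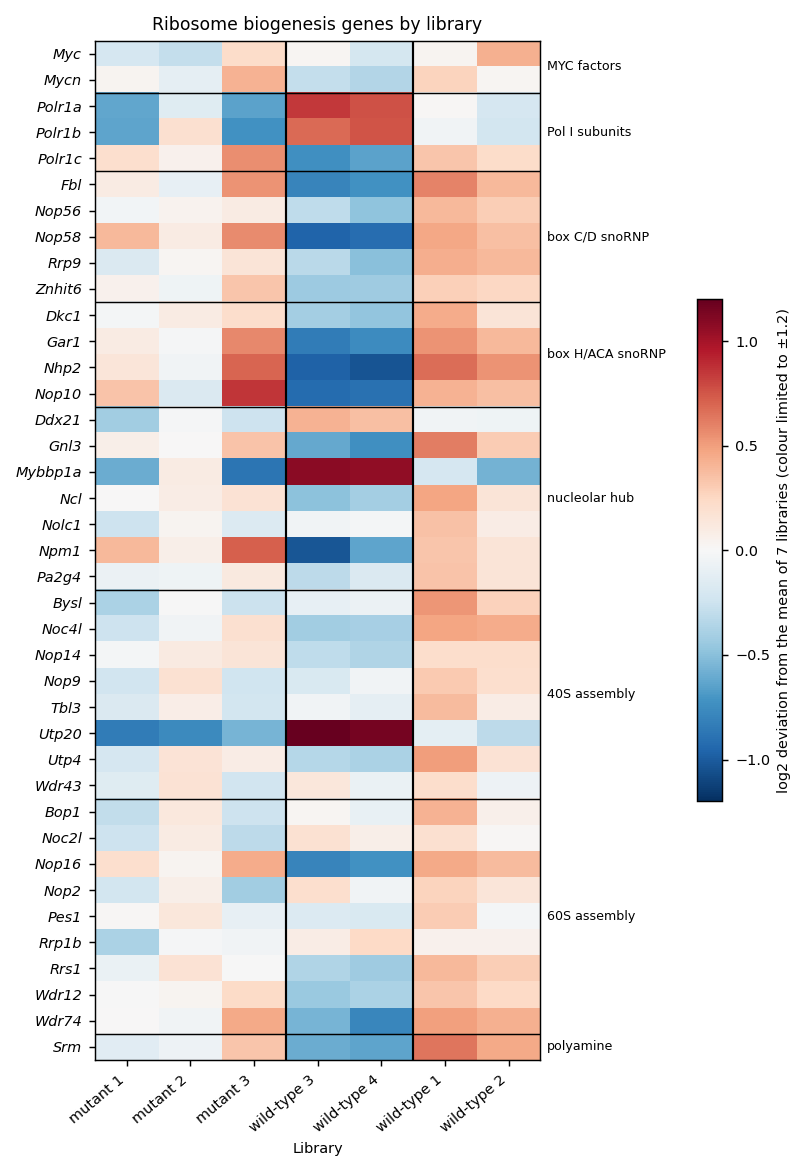
Deviation of each member's log2(normalized count + 1) from its mean over the 7 libraries, with members in rows grouped by role and libraries in columns (3 mutant, then wild-type 3 and 4, then wild-type 1 and 2). By their mean log2 values 32 of the 39 members are lower in wild-type 3 and 4 than in wild-type 1 and 2, and Utp20, Mybbp1a, Polr1a, Polr1b and Ddx21 are among the other 7.

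Summed over the 39 members, normalized counts were 207712, 210862 and 247357 in mutant 1 to 3, against 168548 and 166652 in wild-type 3 and 4, with 269384 and 241073 in wild-type 1 and 2. Mutant 3 reached the level of wild-type 2, and mutant 1 and 2 lay between the pairs. Mutant 1 was below both wild-type 1 and 2 in 35 members, mutant 2 in 31 and mutant 3 in 24. The median log2 difference from the mean of wild-type 1 and 2 was -0.39 in mutant 1, -0.23 in mutant 2 and -0.21 in mutant 3. Each mutant library thus had most members below wild-type 1 and 2, mutant 3 the fewest. No such counts per library were taken over all genes, so they describe these members only. In bulk samples, fewer cells of a type and less RNA per cell cannot be told apart.

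Levels per length are the FPKM values (fragments scaled to transcript length and library size) of the authors, summed over the transcripts of a gene and averaged over the 7 libraries. On that scale the members spanned 4.44 FPKM for Utp20 to 542 FPKM for Npm1. Ncl (399), Nop56 (362), Nop10 (287) and Myc (253 FPKM) followed Npm1, and Polr1a (12.1) and Bysl (12.6 FPKM) were next to Utp20 at the low end.

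The MYC factors passed in no comparison of the genotypes. Myc (ENSMUSG00000022346.15, chromosome 15, 61985391 to 61990374, plus strand, GRCm38) had 12111, 11423 and 16206 normalized counts in mutant 1 to 3, against 14304, 18752, 14133 and 12050 in wild-type 1 to 4. The groups overlapped, and the means were 13247 ± 2586 in mutant and 14810 ± 2821 in wild-type libraries (SD, n = 3 and 4). The log2 difference was -0.16 (SE 0.21, limma, adjusted p = 0.696) against all wild-type libraries, -0.32 against wild-type 1 and 2 and 0.00 against wild-type 3 and 4. Mycn, which haematopoietic stem cells express beside Myc, had 8602, 7840 and 11272 normalized counts in mutant 1 to 3, against 10177, 8547, 6919 and 6609 in wild-type 1 to 4. Every mutant library was above wild-type 3 and 4 and the range overlapped that of wild-type 1 and 2, with log2 differences of 0.43 (adjusted p = 0.085) and -0.03 (adjusted p = 0.977, limma). Between the wild-type pairs, Mycn fell in wild-type 3 and 4 relative to wild-type 1 and 2 (log2 -0.46, SE 0.11, limma, adjusted p = 0.00597).

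RNA polymerase I subunits split by gene. Polr1a, which encodes the largest subunit, had 768, 1070 and 758 normalized counts in mutant 1 to 3, against 2136 and 2010 in wild-type 3 and 4, with 1195 and 1027 in wild-type 1 and 2. Mutant values were well below wild-type 3 and 4, where the gene fell by 1.28 on the log2 scale (SE 0.19, limma, adjusted p = 0.00228), and overlapped wild-type 1 and 2 (log2 -0.38, SE 0.20, adjusted p = 0.601). Polr1b, the second catalytic subunit, had 993, 1762 and 930 normalized counts in mutant 1 to 3, against 2476 and 2612 in wild-type 3 and 4, with 1500 and 1327 in wild-type 1 and 2. It fell by 1.11 on the log2 scale against wild-type 3 and 4 (limma, adjusted p = 0.0117) and had -0.26 against wild-type 1 and 2 (adjusted p = 0.818), where mutant 2 was above both libraries and the other mutant libraries were below both. Polr1c, a subunit that RNA polymerase I shares with RNA polymerase III, ran the other way. It had 1919, 1732 and 2461 normalized counts in mutant 1 to 3, against 998 and 1069 in wild-type 3 and 4, with 2101 and 1945 in wild-type 1 and 2. It rose against wild-type 3 and 4 (log2 0.96, SE 0.18, limma, adjusted p = 0.00573) and its mean was level with that of wild-type 1 and 2 (2038 ± 379 in mutant libraries, n = 3, against 2023 ± 110, n = 2, SD).

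The box C/D snoRNP genes, which place 2'-O-methyl groups on ribosomal RNA, were between the pairs or level with wild-type 1 and 2. Nop58, a core scaffold protein, had 9208, 7520 and 10454 normalized counts in mutant 1 to 3, against 3614 and 3739 in wild-type 3 and 4, with 9738 and 9020 in wild-type 1 and 2. It showed the highest member difference against wild-type 3 and 4 (log2 1.29, SE 0.17, limma, adjusted p = 0.00135) and overlapped wild-type 1 and 2 (log2 -0.06, SE 0.18, adjusted p = 0.943). Fbl, the methyltransferase itself, had 6188, 5381 and 8365 normalized counts in mutant 1 to 3, against 3323 and 3493 in wild-type 3 and 4, with 8722 and 7531 in wild-type 1 and 2. Fbl rose against wild-type 3 and 4 (log2 0.94, adjusted p = 0.00752) and had -0.31 against wild-type 1 and 2 (adjusted p = 0.687, limma). Rrp9, a U3 snoRNP protein needed for the first cleavages of the precursor, had 1748, 1995 and 2191 normalized counts in mutant 1 to 3, against 1567 and 1392 in wild-type 3 and 4, with 2657 and 2568 in wild-type 1 and 2. Every mutant library stood between the pairs (log2 0.41 and -0.41, adjusted p = 0.0666 and 0.455, limma). Nop56, the partner of Nop58, and Znhit6, an assembly factor, rose against wild-type 3 and 4 (log2 0.43 and 0.54, limma, adjusted p = 0.0409 and 0.0298) and had -0.31 and -0.15 against wild-type 1 and 2, where neither passed.

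The 4 box H/ACA snoRNP proteins, which carry out pseudouridylation and also bind telomerase RNA, all rose against wild-type 3 and 4 and all had negative differences against wild-type 1 and 2 that did not pass. Nhp2 had 4714, 4133 and 6904 normalized counts in mutant 1 to 3, against 2184 and 2083 in wild-type 3 and 4, with 6795 and 6196 in wild-type 1 and 2. Its differences were 1.26 (SE 0.22, limma, adjusted p = 0.00403) and -0.34 (SE 0.22, adjusted p = 0.676), and wild-type 3 and 4 had a log2 difference of -1.60 from the other pair, the lowest such value among the members. Nop10, the smallest of these proteins, had 9620, 6729 and 13756 normalized counts in mutant 1 to 3, against 3996 and 4079 in wild-type 3 and 4, with 10074 and 9728 in wild-type 1 and 2. Mutant 3 was above, and mutant 1 and 2 below, both of wild-type 1 and 2. Gar1, a core protein, and Dkc1, the pseudouridine synthase itself, had differences of 1.01 and 0.54 against wild-type 3 and 4 (limma, adjusted p = 0.00574 and 0.0178), and -0.25 and -0.20 against wild-type 1 and 2.

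Nucleolar hub proteins were mixed. Npm1 (nucleophosmin, a chaperone of ribosome assembly and histones) was the 1 member with a positive difference against both pairs. It had 23868, 19111 and 29988 normalized counts in mutant 1 to 3, against 8968 and 11736 in wild-type 3 and 4, with 23048 and 20299 in wild-type 1 and 2. It rose against wild-type 3 and 4 (log2 1.22, SE 0.22, limma, adjusted p = 0.00474) and overlapped wild-type 1 and 2 (log2 0.14, SE 0.21, adjusted p = 0.886), a difference that was -0.018 without mutant 3. Processed copies of Npm1 are known, so reads may have been shared with them. Ncl (nucleolin, which binds the ribosomal RNA precursor) had 32108, 34103 and 36173 normalized counts in mutant 1 to 3, against 22890 and 24204 in wild-type 3 and 4, with 44660 and 35797 in wild-type 1 and 2. Mutant values of Ncl were all above wild-type 3 and 4 (log2 0.53, adjusted p = 0.0231, limma), and mutant 3 overlapped wild-type 1 and 2. Mybbp1a, a MYB-binding nucleolar protein that acts on ribosomal RNA synthesis, had 3039, 4936 and 2506 normalized counts in mutant 1 to 3, against 9739 and 9601 in wild-type 3 and 4, with 4008 and 3102 in wild-type 1 and 2. It fell by 1.53 on the log2 scale against wild-type 3 and 4 (SE 0.26, limma, adjusted p = 0.00391) and overlapped wild-type 1 and 2 (log2 -0.07). Gnl3 (nucleostemin, a GTPase of stem cell nucleoli) rose against wild-type 3 and 4 (log2 0.81, limma, adjusted p = 0.00599), and Ddx21, an RNA helicase, fell by 0.62 on the log2 scale (adjusted p = 0.0176). Nolc1, a snoRNP chaperone, and Pa2g4, a growth-regulated RNA-binding protein, passed in neither comparison and had every mutant library below wild-type 1 and 2 (log2 -0.35 and -0.25).

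Genes for 40S assembly had the lowest median of the roles with more than 1 gene against wild-type 1 and 2 (log2 -0.35, 8 genes). In 7 of the 8 every mutant library was below that pair, as in 12.4% of all genes. The same held in 4 of 9 genes of 60S assembly, 2 of 5 of box C/D snoRNPs, 2 of 7 hub proteins and Srm. It held in 0 of the MYC factors, RNA polymerase I subunits and box H/ACA genes. Bysl, needed for late 40S maturation, had 876, 1141 and 952 normalized counts in mutant 1 to 3, against 1069 and 1084 in wild-type 3 and 4, with 1651 and 1387 in wild-type 1 and 2. It had the lowest log2 difference of all members against wild-type 1 and 2 (-0.62, SE 0.18), and it did not pass (unadjusted p = 0.00663, limma, adjusted p = 0.255). Utp20, a very large scaffold of the small subunit processome, had 252, 267 and 308 normalized counts in mutant 1 to 3, against 1227 and 1009 in wild-type 3 and 4, with 418 and 365 in wild-type 1 and 2. All mutant values of Utp20 were below all wild-type values, a pattern shared by 1 other member, Rrp1b. Utp20 fell by 2.01 on the log2 scale against wild-type 3 and 4 (SE 0.19, limma, adjusted p = 0.000411). Against wild-type 1 and 2 it had -0.51 (SE 0.21, adjusted p = 0.475), and against all wild-type libraries -1.26 (SE 0.44, unadjusted p = 0.0201, adjusted p = 0.538, limma).

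Other small subunit factors lay closer together. Noc4l, whose yeast counterpart works with that of Nop14, had 2315, 2682 and 3150 normalized counts in mutant 1 to 3, against 2059 and 2086 in wild-type 3 and 4, with 3824 and 3740 in wild-type 1 and 2. Its mutant libraries were all below one pair and all above the other (log2 -0.49 and 0.38, adjusted p = 0.379 and 0.0993, limma). Nop14 and the processome protein Utp4 stood between the pairs in the same way, and Nop14 passed against wild-type 3 and 4 (log2 0.41, adjusted p = 0.0497, limma). Tbl3 and Nop9 were level with wild-type 3 and 4 (log2 -0.03 and 0.02) and below wild-type 1 and 2 (log2 -0.34 and -0.36). Wdr43 overlapped both pairs.

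Among the 9 genes of 60S assembly, the median log2 difference was -0.26 against wild-type 1 and 2 and 0.20 against wild-type 3 and 4. Nop16 had 4137, 3667 and 4886 normalized counts in mutant 1 to 3, against 2076 and 2175 in wild-type 3 and 4, with 4929 and 4659 in wild-type 1 and 2. Nop16 and Wdr74, both of them factors of large subunit precursors, rose against wild-type 3 and 4 (log2 0.98 and 0.80, adjusted p = 0.00348 and 0.0116, limma) and overlapped wild-type 1 and 2. The PeBoW complex, made of Pes1, Bop1 and Wdr12 and needed for large subunit maturation, had unlike values among its members. Wdr12 rose against wild-type 3 and 4 (log2 0.50, adjusted p = 0.0247, limma), while Pes1 and Bop1 had 0.20 and -0.11 and did not pass. Rrp1b had 1803, 2315 and 2273 normalized counts in mutant 1 to 3, against 2428, 2428, 2484 and 2765 in wild-type 1 to 4. The groups of Rrp1b did not overlap, at a log2 difference of -0.25 (SE 0.16, limma, adjusted p = 0.539). Nop2, a ribosomal RNA methyltransferase, Noc2l and Rrs1, a 5S particle factor, had -0.39, -0.26 and -0.31 against wild-type 1 and 2, and Rrs1 rose against wild-type 3 and 4 (log2 0.42, adjusted p = 0.047, limma).

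Srm encodes spermidine synthase, an enzyme of polyamine synthesis and a classical MYC target. It had 6968, 7353 and 9668 normalized counts in mutant 1 to 3, against 5068 and 4937 in wild-type 3 and 4, with 11965 and 10502 in wild-type 1 and 2. All mutant libraries were between the pairs. Srm rose against wild-type 3 and 4 (log2 0.66, SE 0.17, limma, adjusted p = 0.017) and had -0.50 against wild-type 1 and 2 (SE 0.18, adjusted p = 0.404).

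**Figure D2:**
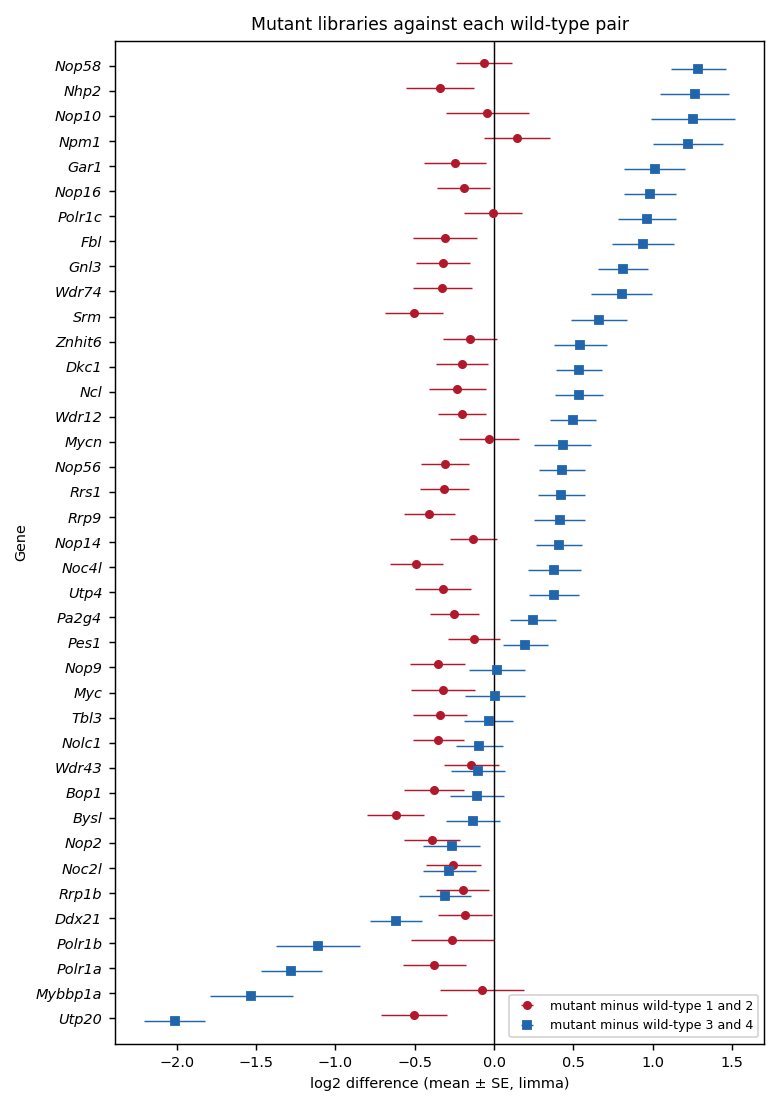
Log2 difference (point, with limma's SE as the bar) of the 3 mutant libraries from wild-type 1 and 2 (circles) and from wild-type 3 and 4 (squares) for each member, in the order of the differences from wild-type 3 and 4. The circles lie between -0.62 and 0.14, and the squares spread from -2.01 for Utp20 to 1.29 for Nop58.

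Transcript length moved with the differences that involved wild-type 3 and 4. Length is that of the most abundant transcript model of each gene. Across the 39 members, which are not independent replicates, Spearman's rho between length and the difference of wild-type 3 and 4 from wild-type 1 and 2 was 0.81, and over 10740 genes it was 0.67. For mutant minus wild-type 3 and 4 it was -0.80 in members and -0.69 over the same 10740 genes. For mutant minus wild-type 1 and 2 it was -0.05 in members and 0.06 over the 10740 genes. With the merged exon bases of a gene as its length, members and 15770 genes were alike. Between the pairs rho was then 0.50 in members and 0.51 over these genes. For mutant minus wild-type 3 and 4 it was -0.47 and -0.52, and for mutant minus wild-type 1 and 2 it was -0.0085 and 0.03. These comparisons share libraries, and the values are descriptions.

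By length, the 13 shortest members (868 to 1756 bases) had a median log2 difference of 0.96 against wild-type 3 and 4 and -0.25 against wild-type 1 and 2. The 13 of middle length (1947 to 2785 bases) had 0.24 and -0.32. The 13 longest (2804 to 8821 bases) had -0.13 and -0.20. Negative differences against wild-type 1 and 2 were thus found in 12, 13 and 13 members of these groups, whereas against wild-type 3 and 4 they were found in 0, 5 and 8. A slope of each library's deviations on log length was also taken, here on the merged exon bases of each of 15771 genes. It was -0.38, 0.03 and -0.58 in mutant 1 to 3, against 0.81 in both wild-type 3 and 4 and -0.33 and -0.36 in wild-type 1 and 2. With that slope as a covariate, 36 of 39 members were below 0 against all 4 wild-type libraries (median -0.22), and limma called 0 of them. The part of length in the members' values was not tested further.

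**Figure D3:**
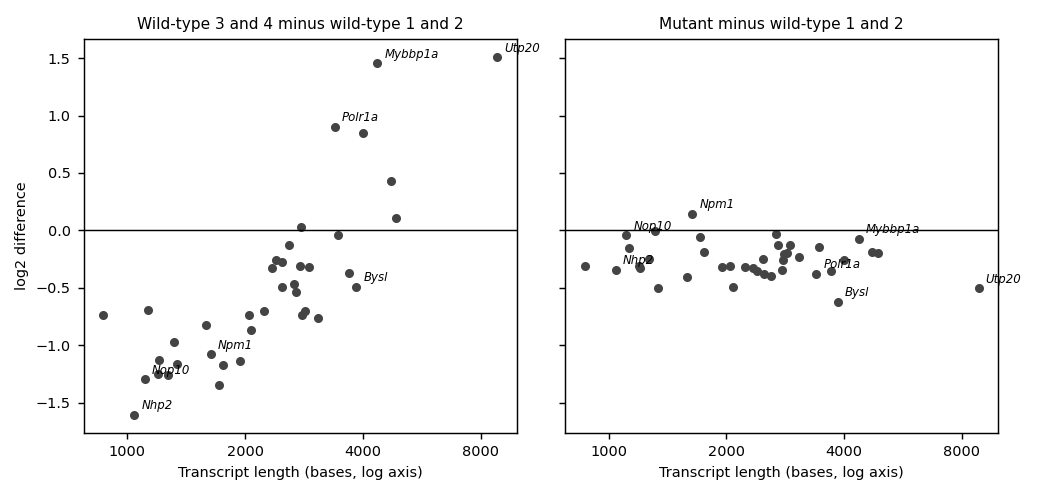
Log2 difference of each member by the length of its most abundant transcript model in bases (log axis), for wild-type 3 and 4 minus wild-type 1 and 2 (left) and for mutant minus wild-type 1 and 2 (right). The points climb with length on the left (rho 0.81, n = 39) and stay in a flat band mostly below 0 on the right (rho -0.05).

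Inside and outside the shared title series, the members' medians had different signs. In the series shared by both genotypes (mutant 1 and 2 against wild-type 3 and 4), limma called 16 members higher and 5 lower, while 16.4% of all genes were called higher and 21.1% lower, and the members' median log2 difference was 0.34. Outside it, mutant 3 alone was compared with wild-type 1 and 2 and was assumed to vary like them: limma called 0 members higher and 4 lower (Polr1b, Nop9, Bysl and Nop2), 29 were below 0, and the median was -0.21. Of all genes, 3.45% were called higher and 2.92% lower in that fit. With the series as a covariate over all 7 libraries, limma called 6 members higher and 4 lower, with a median of 0.11, while 9.96% of all genes were called higher and 12.5% lower. That fit puts mutant 3 on the same level as wild-type 1 and 2, which the labels do not state and which is an assumption. In the wild-type libraries, the pair, the title series and the length slope coincide and cannot be told apart.

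The wider pathway was read from 7 lists. By limma 0 of their genes passed against all 4 wild-type libraries or against wild-type 1 and 2. At an unadjusted p under 0.05 each list had 0 to 2 genes in the first comparison and 0 to 6 in the second. Of all 16047 genes, 1365 and 1539 were under it in these comparisons. Against wild-type 1 and 2 the difference was negative in 48 of 54 genes of 60S assembly (median -0.16), 33 of 41 genes of the small subunit processome and 40S assembly (median -0.15), 12 of 13 genes of the exosome that trims ribosomal RNA (median -0.25) and 28 of 30 MYC targets outside the nucleolus (median -0.21). RNA polymerase I machinery had 9 of 15 negative (median -0.03), snoRNP partners 10 of 13 (median -0.17) and MYC partners and antagonists 11 of 16 (median -0.09). Against wild-type 3 and 4, where 19.7% of all genes were called higher and 22.8% lower, limma called 23 of the 54 genes of 60S assembly higher and 7 lower, and 14 of the 41 of 40S assembly higher and 11 lower. It called 8 of the 13 exosome genes higher and 1 lower, 15 of the 30 MYC targets higher and 3 lower, and 6 of the 15 genes of RNA polymerase I machinery higher and 1 lower. For snoRNP partners 6 of 13 were called higher and 1 lower, and for MYC partners and antagonists 2 of 16 higher and 7 lower.

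Of the 60S and 40S genes outside the 39, Heatr1 and Urb1 had the lowest differences of their lists against all wild-type libraries. Heatr1, a large processome protein needed for transcription of ribosomal RNA, had 438, 557 and 420 normalized counts in mutant 1 to 3, against 2559 and 2177 in wild-type 3 and 4, with 565 and 525 in wild-type 1 and 2. Heatr1 fell by 2.33 on the log2 scale against wild-type 3 and 4 (limma, adjusted p = 0.000242) and overlapped wild-type 1 and 2 (log2 -0.22, adjusted p = 0.793, limma). Cad, the enzyme that begins pyrimidine synthesis and a MYC target, had 823, 1032 and 1368 normalized counts in mutant 1 to 3, against 5003 and 4810 in wild-type 3 and 4, with 1198 and 1176 in wild-type 1 and 2. Max, the obligate partner of MYC, had 1287, 862 and 1181 normalized counts in mutant 1 to 3, against 483 and 425 in wild-type 3 and 4, with 1012 and 953 in wild-type 1 and 2. It stood well above wild-type 3 and 4 and overlapped wild-type 1 and 2 (log2 1.27 and 0.16). Fbxw7, the ubiquitin ligase subunit that degrades MYC, had 297, 299 and 285 normalized counts in mutant 1 to 3, against 656 and 637 in wild-type 3 and 4, with 412 and 370 in wild-type 1 and 2, so the mutant values were all below the wild-type ones (log2 -0.77 against all).

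Transcript models were read for Dkc1 and Znhit6, 2 genes set for this reading with earlier results of these data known. Of each gene, the first numbered model and the model with the smallest p against all wild-type libraries are described. These models with the smallest p, Dkc1-210 and Znhit6-204, also had the 2 smallest p-values among the members' transcripts. Given this choice, that rank is no independent result. Of 245 transcript models of the members, 165 were tested, and limma on log2(FPKM + 1) called 0 of them and 0 of all 30156. Dkc1-210, a model of 657 bases (chromosome X, 75100053 to 75108243) annotated as a target of nonsense-mediated decay, had 6.65, 6.19 and 5.63 FPKM in mutant 1 to 3, against 0.572, 0.000737, 0.0251 and 0.000544 FPKM in wild-type 1 to 4. Every mutant library was above every wild-type library, a pattern of 2 of the 165 models and of 4.27% of all transcripts. On the log2(FPKM + 1) scale the difference was 2.66 (SE 0.25, limma, unadjusted p = 3.31e-06, adjusted p = 0.0997), so it did not pass. With a pseudocount of 10 it passed (adjusted p = 0.0237, limma), with one of 0.1 it did not (log2 5.19, adjusted p = 0.663), and with 1 library left out the adjusted p was 0.0776 to 0.876. Against wild-type 3 and 4 alone it passed (adjusted p = 0.0093, limma), as did 22.5% of all transcripts, and against wild-type 1 and 2 it did not (adjusted p = 0.169), where 0.00663% of all transcripts passed. Between the wild-type pairs its difference was -0.31 (adjusted p = 0.555, limma), and 36.3% of all transcripts passed. The model made up 3.62%, 3.33% and 2.65% of the gene's FPKM in mutant 1 to 3, against 0.24% and less in the wild-type libraries.

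The full-length model Dkc1-201 had 63.4, 69.3 and 77.8 FPKM in mutant 1 to 3, against 92.9, 80.9, 59.98 and 54.4 FPKM in wild-type 1 to 4, with overlapping groups (log2 -0.01). Dkc1-210, which is also shorter at its ends, skips exons 8 and 9 of that model (131 and 144 bases, 275 in all). The junctions that tell these models apart were read from GRCm38 with GENCODE vM21 and are shown because reads across them would settle which model is present. Exons are numbered as in Dkc1-201. Lower case marks the last 15 bases before the junction and capitals the first 15 bases after it, on the plus strand.
Dkc1-210, exon 7 to exon 10: ctgagagaagattagGTGAATGCAATCTGC
Dkc1-201, exon 7 to exon 8: ctgagagaagattagGAATCTTTTGGGTAA
Dkc1-201, exon 9 to exon 10: atgaaagatagtgcaGTGAATGCAATCTGC
The skipping junction thus joins the left side of the second sequence to the right side of the third. Values near 0 from Cufflinks can come from how reads were divided among overlapping models, and junction reads were not used here.

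Znhit6-204, a model of 602 bases, ran in the opposite direction. It had 0.0836, 0.795 and 0.000946 FPKM in mutant 1 to 3, against 2.30, 5.46, 3.34 and 3.92 FPKM in wild-type 1 to 4. The mutant values were all below the wild-type ones, as in 12 of the 165 models and 3.82% of all transcripts. The difference was -1.89 on the log2(FPKM + 1) scale (SE 0.32, limma, unadjusted p = 0.000282, adjusted p = 0.661), -1.89 against each wild-type pair, and 0.00 between the pairs. It passed against wild-type 3 and 4 (adjusted p = 0.0219, limma) and not against wild-type 1 and 2 (adjusted p = 0.449). Znhit6-201 had 16.2, 14.7 and 18.2 FPKM in mutant 1 to 3, against 17.2, 18.2, 12.8 and 11.9 FPKM in wild-type 1 to 4, and its groups overlapped (log2 0.13). Znhit6-206 had 16.8, 15.3 and 24.5 FPKM in mutant 1 to 3, against 21.9, 18.0, 7.81 and 9.77 in wild-type 1 to 4. Its groups overlapped too (log2 0.45). The models differ at their first exon. Znhit6-204 also ends earlier, at 145592884 on chromosome 3, against 145604795 in Znhit6-201 and 145604113 in Znhit6-206. The bases around the first junction are shown in the same notation, with those of the unspliced Znhit6-201 at the same place.
Znhit6-204: cttcggcctaggctcAACGTAAAGGAAGAG
Znhit6-206: tcggcggttcgtttgAACGTAAAGGAAGAG
Znhit6-201: ttgtttgttggtcagAACGTAAAGGAAGAG
In these printed bases the right side is shared, and only the left side separates the models.

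**Figure D4:**
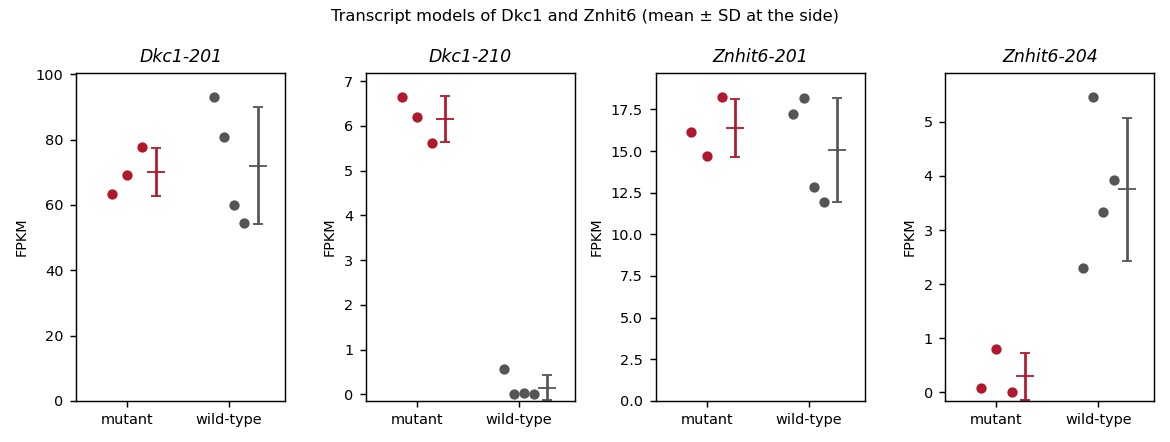
FPKM of 4 transcript models in the 3 mutant and 4 wild-type libraries, 1 point per library, with the mean and SD at the side of each group. Dkc1-210 is at 5.63 to 6.65 FPKM in the mutant libraries and below 0.6 in the wild-type libraries, and Znhit6-204 is below 0.8 FPKM in the mutant libraries.

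Promoters were searched for the canonical E-box that MYC and MAX bind. The motif was CACGTG, which reads the same on both strands, and the windows held 300 bases, 250 before and 50 after each start, from RefSeq on GRCm38.p6. Of the 39 members, 32 had a window, and 6 of these (18.8%) held the motif, against 2187 of 27025 genes (8.09%). The 6 are printed as 30 bases on the strand of the gene with the motif in capitals, since they show where the motif sits in members with unlike values.
Mybbp1a, chr11:72441347-72441376, plus: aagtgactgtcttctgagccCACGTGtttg
Nop2, chr6:125131811-125131840, plus: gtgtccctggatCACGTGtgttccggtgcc
Pes1, chr11:3963965-3963994, plus: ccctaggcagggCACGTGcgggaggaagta
Utp20, chr10:88826765-88826794, minus: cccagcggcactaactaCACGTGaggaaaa
Utp4, chr8:106893643-106893672, plus: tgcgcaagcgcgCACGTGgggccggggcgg
Wdr43, chr17:71616220-71616249, plus: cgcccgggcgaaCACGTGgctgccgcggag
In all but Nop2 the motif lay after the annotated start. These 6 members had log2 differences of -0.07, -0.39, -0.12, -0.51, -0.32 and -0.14 against wild-type 1 and 2, in the order printed, and -1.53, -0.27, 0.20, -2.01, 0.38 and -0.10 against wild-type 3 and 4. A match describes these letters in this window only.

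Small nucleolar RNA (snoRNA) genes lie inside several members, and many snoRNAs are known to be cut from introns of genes for ribosome synthesis. In GENCODE vM21, 6 of the 39 members (15.4%) held at least 1 annotated snoRNA gene on their own strand, 19 in all, against 1.78% of the tested genes with a position. They were Nop56 with 5, Nop58 with 4, Gnl3, Ncl and Wdr43 with 3 each, and Dkc1 with 1. The libraries were unstranded, and 17 of the 39 members share exon bases with another annotated gene, such as Bysl with Ccnd3 (cyclin D3), Nop56 with Idh3b, Gnl3 with Pbrm1 and Mybbp1a with Spns2, all on the opposite strand. Reads from the shared bases of such a pair cannot be told apart.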

How the data were processed

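Unstranded libraries were made with the Swift 2S Plus kit from sheared SMART-Seq v4 cDNA of sorted cells, after PicoPure RNA isolation, per the labels' protocols. The authors used GRCm38 with DESeq2 1.12.4, Cufflinks 2.2.1, HTSeq 0.6.1, STAR 2.7.3a and FastQC 0.11.7, per the submitters' processing notes. Options of these tools: not given in the sources used here. As deposited by the authors, the files hold a normalized count (the gene signal, counts divided by a size factor per library) for 19649 genes and FPKM for 66660 transcripts. In each library 100% of the gene values were whole multiples of one step within 0.01 reads, so whole reads were recovered for count tests. No listed gene had reads in fewer than 4 libraries.

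The 16047 genes that reached a normalized count of 10 in 3 or more libraries were tested on the log2(normalized count + 1) scale by limma 3.58.1 (R 4.3.3, trended variance, two-sided) at a Benjamini-Hochberg adjusted p of 0.05 over all of them. The 30156 transcripts that reached an FPKM of 1 in 3 or more libraries were tested on log2(FPKM + 1). Such log2 fold changes understate changes of low genes. Log2 differences are of group means, and SE is limma's. GENCODE vM21 matched 97.9% of genes and 99.1% of transcripts. The limma fit was checked on simulated reads with planted changes but no broad difference between the wild-type pairs. That check covers the size of the estimates and not the calls made here. Alternatives were other pseudocounts, filters, scalings (TMM, quantile), edgeR 4.0.16 and DESeq2 1.42.0 on recovered reads, each library left out, the title series and the length slope.

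The members and lists were chosen with earlier results of these data known. The genes named are all 39 members and, from the 7 wider lists, the highest or lowest tested gene against all wild-type libraries. RefSeq windows were matched by symbol. A further lineage marker is not reported here.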

Additional observations from a re-analysis of the deposited data

Results flagged for a closer look

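In the 39 members, 1 wild-type group held a library far from the others by Dixon's test. Rrp1b, a nucleolar protein of large subunit assembly, stood at 2765 normalized counts in the fourth wild-type library, while the other 3 held 2428, 2428 and 2484. At the level used, about 5% of such groups stand out by chance alone, and 39 were examined. Groups of 3 mutant libraries were too small for this test.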

How the results depend on the processing

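No paired analysis was possible because the groups share no replicate number in the labels. Against all wild-type libraries, the members' median was -0.0058 with DESeq2, -0.016 with edgeR, -0.22 with the length slope, -0.21 outside the shared title series, 0.34 within it, and -0.092 to 0.19 with 1 library left out. Genes called higher and lower were 47 and 60 with DESeq2, 99 and 28 with the length slope (36 members below 0), 1599 and 1998 with the series as a covariate (members 6 and 4), 2631 and 3379 within the series (members 16 and 5), and 554 and 468 outside it (4 members lower, 29 below 0). Against wild-type 1 and 2, where 38 and 13 genes were called, quantile normalization gave 19 and 3, edgeR 16 and 5, and DESeq2 215 and 72. With 1 library left out, the counts there were 0 to 465 higher and 0 to 304 lower (members lower 0 to 3). Against wild-type 3 and 4 they were 154 to 4078 higher and 1329 to 4682 lower (members 2 to 20 higher and 3 to 7 lower). Quantile normalization moved the members' median to 0.28 there and to -0.59 between the pairs, where it was -0.72 to -0.54 with 1 library left out, and put the median of all genes at 0.10 and -0.11, against -0.0044 and 0.0083 as deposited. Of the transcripts of Dkc1 and Znhit6, 1 was called with a pseudocount of 10 and 6 without wild-type 1 and 2. The cause of these changes was not tested.

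Of the values of single genes and transcripts under the alternatives, 2554 kept their sign and side of the threshold, 86 passed it, 89 lost it and 128 changed sign. Those that changed sign were, as log2 differences, the following. With TMM scaling, against all wild-type libraries Rrp9 -0.0023, and against wild-type 3 and 4 Myc -0.0084. With quantile normalization, against all wild-type libraries Nop56 -0.051, Ncl -0.12, Pa2g4 0.035, Noc4l 0.0041, and against wild-type 1 and 2 Polr1c 0.0053, Taf1c -0.00030, and against wild-type 3 and 4 Myc -0.28, Tbl3 0.047, Bysl 0.094, and between the pairs Wdr43 0.086. With edgeR on recovered reads, against all wild-type libraries Rrp9 -0.054, Utp4 -0.015, Srm -0.026, and against wild-type 1 and 2 Polr1c 0.0021, Nop10 0.011. With DESeq2 on recovered reads, against all wild-type libraries Rrp9 -0.044, Utp4 -0.0058, Srm -0.017, and against wild-type 1 and 2 Polr1c 0.0081, Nop10 0.018. With the length slope as a covariate, against all wild-type libraries Mycn -0.043, Fbl -0.27, Nop56 -0.25, Rrp9 -0.34, Znhit6 -0.13, Dkc1 -0.14, Gar1 -0.19, Nhp2 -0.27, Nop10 -0.039, Ncl -0.17, Gnl3 -0.25, Nop14 -0.084, Utp4 -0.24, Nop16 -0.13, Rrs1 -0.22, Pes1 -0.068, Wdr12 -0.16, Wdr74 -0.27, Srm -0.43, Taf1c 0.0082. With the title series as a covariate, against all wild-type libraries Pa2g4 0.058, Noc4l 0.054. With only the shared title series, against all wild-type libraries Pa2g4 0.18, Nop9 0.091, Noc4l 0.27, Tbl3 0.025. With only the libraries outside the shared title series, against all wild-type libraries Nop56 -0.25, Rrp9 -0.25, Dkc1 -0.089, Ncl -0.14, Gnl3 -0.12, Nop14 -0.051, Utp4 -0.25, Rrs1 -0.35, Pes1 -0.24, Wdr12 -0.057, Wdr74 -0.0053, Srm -0.21, Cad 0.20. With wild-type 3 and 4 left out, Znhit6-201 -0.11. With wild-type 1 and 2 left out, Dkc1-201 0.29. With 1 library left out, the lowest and highest values against all wild-type libraries were Pa2g4 -0.11 to 0.11, Noc4l -0.20 to 0.095, Rrp9 -0.16 to 0.15, Utp4 -0.093 to 0.20, Rrs1 -0.078 to 0.19, Pes1 -0.023 to 0.14, Srm -0.12 to 0.30, Nop56 -0.092 to 0.20. With 1 library left out, the lowest and highest values against wild-type 1 and 2 were Mycn -0.18 to 0.095, Polr1c -0.15 to 0.10, Cad -0.36 to 0.0013, Nop58 -0.17 to 0.066, Nop10 -0.30 to 0.22, Taf1c -0.091 to 0.13, Npm1 -0.018 to 0.31, Mybbp1a -0.35 to 0.14, Imp3 -0.16 to 0.27, Nsa2 -0.050 to 0.17, Trmt112 -0.15 to 0.23, Hspe1 -0.022 to 0.25, C1d -0.10 to 0.20, Pes1 -0.29 to 0.040, Dis3 -0.44 to 0.12. With 1 library left out, the lowest and highest values against wild-type 3 and 4 were Tbl3 -0.13 to 0.025, Nop9 -0.12 to 0.091, Myc -0.15 to 0.12, Wdr43 -0.22 to 0.0081. With 1 library left out, the lowest and highest values between the pairs were Noc2l -0.067 to 0.12, Wdr43 -0.18 to 0.093, Nop2 -0.25 to 0.00010. With 1 library left out, the lowest and highest values of the transcripts were Dkc1-201 -0.13 to 0.12. With 3, 2 and 2 libraries per group, small differences are within the spread between libraries, and genes at low counts, such as Utp20, are measured with fewer reads.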
